A study of Mus musculus with 48 samples.

Results

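Ptgs2, the gene of the inducible cyclooxygenase COX-2, was followed together with 4 other genes of prostaglandin E2 synthesis in mouse fibroblasts with and without a hairpin against the clock gene Bmal1. The 5 genes Ptgs1, Ptgs2, Ptges, Ptges2 and Ptges3 were taken by name, and all 5 were among the 11313 gene symbols of both deposited tables, one of exons and one of introns. Ptgs2 was selected on its total exon level, which was known to be higher in the shBmal1 line, so line differences of these genes are given below as values with no test. The cells were NIH 3T3, an immortalised mouse embryonic fibroblast line with its own circadian clock, as 1 stable line with the hairpin against Bmal1 (genotype shBmal1) and 1 stable line with a control hairpin (genotype shCTRL). The labels give neither the number of clones nor the amount of BMAL1 protein left. Both lines grew in medium with fetal bovine serum, were synchronised for 2 h in 50% horse serum, and were collected every 2 h from 24 to 46 h. Newly made transcripts were marked with 4-thiouridine (4sU), biotinylated and pulled down on streptavidin, and RNA kept back from the pull-down served as total RNA. This gave 4 groups of 12 libraries: shBmal1 4sU, shCTRL 4sU, shBmal1 total and shCTRL total, with 1 library per group and time point.

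Prostaglandin synthesis starts when phospholipases free arachidonic acid from membrane lipids. The cyclooxygenases PTGS1 and PTGS2 convert it to prostaglandin H2, and terminal synthases turn that into single prostaglandins. PTGS1 is made by most tissues at a steady level, whereas Ptgs2 is an immediate early gene that serum, growth factors and inflammatory signals induce in fibroblasts, and its messenger RNA carries AU-rich elements known to shorten its life. PTGES is the inducible microsomal prostaglandin E synthase, PTGES2 a membrane-associated form, and PTGES3 a cytosolic form that is also known as the HSP90 co-chaperone p23.

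Exon depth recovered from the deposited values was 48873013 to 76260143 reads per library. Levels are RPKM, read counts divided by feature length and library depth, scaled within each kind of RNA so that the median gene was level across libraries. Arntl, the files' name for Bmal1, averaged 3.74 ± 0.723 RPKM in total exon RNA of shBmal1 and 9.24 ± 6.02 RPKM in shCTRL (SD, n = 12 each), lower in shBmal1 at 9 of 12 time points. In 4sU intron RNA it averaged 0.830 ± 0.184 RPKM in shBmal1 and 0.635 ± 0.352 RPKM in shCTRL. All 8 fibroblast markers searched were in the tables, at sums of 4887 to 5372 RPKM in shBmal1 and 4904 to 5985 RPKM in shCTRL, and in total exon 3 of them were higher and 5 lower in shBmal1 by limma adjusted p. The log2 differences of the fibroblast markers ran from -1.69 ± 0.0521 for Pdgfra to 0.26 for S100a4. Of the markers of other cell types, 3 of 5 for leukocytes summed to 17.2 to 25.2 RPKM in shBmal1 and 12.8 to 20.0 RPKM in shCTRL, and Ptprc and Adgre1 were not among the symbols. Of 5 epithelial markers only Krt14 was listed, at 7.64 to 13.6 RPKM in shBmal1 and 2.09 to 4.32 RPKM in shCTRL, and of 4 endothelial markers only Cdh5, at under 1 RPKM in every total library. The part of these markers in the line differences was not tested, and in bulk RNA more cells with a transcript and more of it per cell cannot be told apart. The distance of a culture from its line was taken as the SD over genes of the log2 deviation from the line median. The shBmal1 culture at 34 h stood farthest from its line, with an SD of 0.41 in 4sU exon. The shCTRL culture at 30 h had the largest SD of its line in total exon, 0.26.

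Ptgs2 lies at chr1:150100031-150108234 on the plus strand of GRCm38.p6. Its promoter, from RefSeq on that build, is shown because its letters hold motifs of factors named in the induction of the gene. The first line gives the 250 bases before the listed transcript start (chr1:150099781-150100030), and the second a site just after that start, inside the annotated transcript (chr1:150100037-150100058). Capitals mark matches to the motifs searched.
Ptgs2 promoter: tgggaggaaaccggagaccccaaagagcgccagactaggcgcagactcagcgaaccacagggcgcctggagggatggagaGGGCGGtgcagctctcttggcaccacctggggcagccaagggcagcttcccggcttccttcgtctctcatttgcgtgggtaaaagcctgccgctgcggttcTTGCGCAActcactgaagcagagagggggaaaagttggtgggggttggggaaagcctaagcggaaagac
Ptgs2 site after the start: accactACGTCACGTGgagtcc
Bases are counted from the listed start, with the first base of the annotated transcript as 1. Where transcription starts in these cells was not examined. The site holds the E-box CACGTG at bases 17 to 22, letters that BMAL1 and CLOCK, and also USF proteins, are known to bind. This E-box overlaps by 2 bases the core of a cyclic AMP response element, TGACGT, read on the minus strand at bases 13 to 18. Upstream lie a C/EBP-type motif, TTGCNNAA, at bases -69 to -62 and a GC box, GGGCGG, at bases -170 to -165. The 6 motifs, which also included TATAAA and CCAAT, were chosen with the sequence in view and searched on both strands of the 300 bases from 250 before to 50 after the start. The E-box was in 7.15% of 32851 such windows, the cyclic AMP element core in 7.51%, the C/EBP-type motif in 10.8%, the GC box in 35.7%, TATAAA in 13.6% and CCAAT in 37.4%. A match is a description of the letters, and binding was not measured.

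In total exon RNA, Ptgs2 was the one of the 5 genes whose libraries were fully separated between the lines. Its level was 13.1 RPKM at the lowest, 15.7 at the median and 27.5 at the highest in shBmal1, against 3.50, 5.25 and 6.06 RPKM in shCTRL. These rest on 3540 to 6770 reads per shBmal1 library and 809 to 1941 per shCTRL library. All 12 shBmal1 libraries lay above all 12 shCTRL libraries. Among all 10912 genes tested in total exon, 5.87% were separated in that direction. The fitted log2 difference, shBmal1 minus shCTRL, was 1.70 ± 0.0740 (SE), a 3.25-fold higher level, which ranked 15 from the top of 10912 genes. By time point it ran between 1.35 at 44 h and 2.19 at 46 h.

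Within shBmal1, the total exon level of Ptgs2 stayed between 13.1 and 17.0 RPKM at 10 time points. It stood at 21.2 RPKM at 34 h and 27.5 RPKM at 46 h. In shCTRL the libraries at 28 and 30 h were low, at 3.50 and 3.63 RPKM, and the rest lay between 4.29 and 6.06 RPKM. The plot of total exon levels by time shows both high points of the shBmal1 line, each of 1 library. The 34 h culture was also the one farthest from its line over all genes (SD 0.30 in total exon). Without the 46 h libraries the line difference was 1.64, without those at 34 h it was 1.68 and without those at 30 h 1.67.

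**Figure D1:**
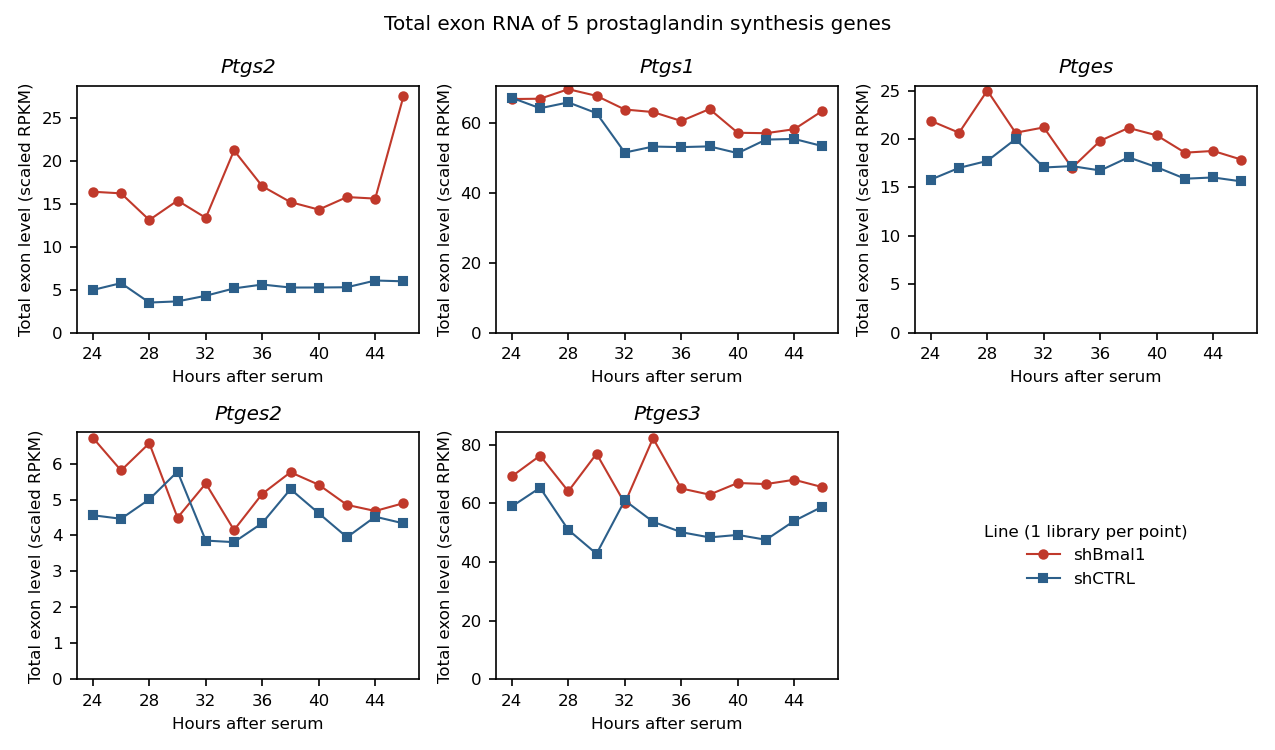
Total exon level (scaled RPKM) of the 5 genes against hours after serum, with shBmal1 as red circles and shCTRL as blue squares and 1 library per point. The 12 Ptgs2 points of shBmal1, 13.1 to 27.5 RPKM, all lie above the 12 of shCTRL, 3.50 to 6.06 RPKM, while the lines overlap for the other genes.

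The newly made and intron RNA of Ptgs2 showed the same separation of the lines. In 4sU exon RNA the lowest, median and highest levels were 15.0, 23.7 and 44.1 RPKM in shBmal1 and 5.84, 8.32 and 11.8 RPKM in shCTRL. The log2 difference was 1.55 ± 0.122, against a background of 3.14% of 11014 genes fully separated with shBmal1 higher. As in total RNA, the highest shBmal1 values were at 46 h and 34 h (44.1 and 37.2 RPKM).

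Introns are spliced out soon after transcription, so intron reads in 4sU RNA follow synthesis more closely than exon reads. In 4sU intron RNA the levels were 1.10, 1.48 and 2.13 RPKM in shBmal1, against 0.424, 0.505 and 0.845 RPKM in shCTRL. The log2 difference was 1.46 ± 0.0753, where 1.71% of 10509 genes were fully separated with shBmal1 higher. In total intron RNA the levels were 1.03, 1.25 and 1.71 RPKM in shBmal1 and 0.344, 0.418 and 0.627 RPKM in shCTRL. That difference was 1.49 ± 0.0840, where 2.63% of 10019 genes were fully separated with shBmal1 higher. Ptgs2 was higher in shBmal1 at 12 of 12 time points in each of the 4 measures. The introns carried fewer reads, 283 to 602 per 4sU library in shBmal1 and 93 to 260 in shCTRL. Without the scaling, 4sU intron RPKM gave a median line difference of -0.45 over all genes and a difference of 0.99 for Ptgs2.

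**Figure D2:**
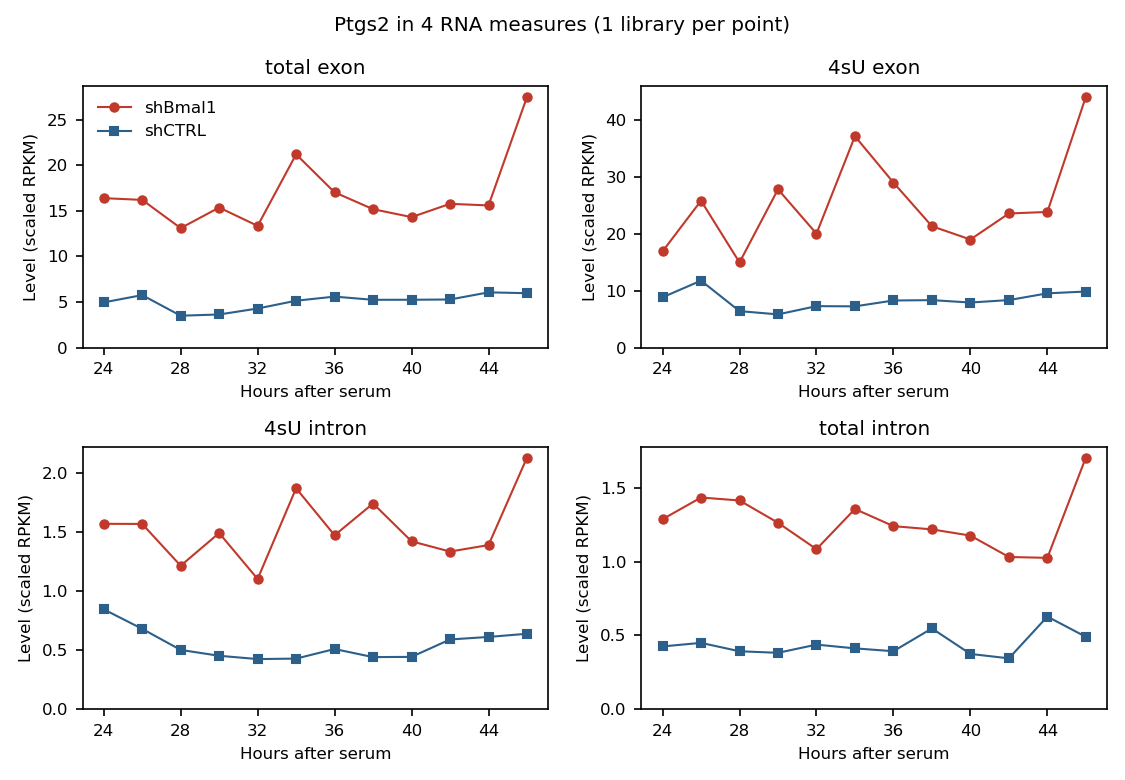
Level of Ptgs2 (scaled RPKM) in total exon, 4sU exon, 4sU intron and total intron RNA against hours after serum, with shBmal1 as red circles and shCTRL as blue squares and 1 library per point. In each panel all shBmal1 points lie above all shCTRL points, and the shBmal1 point at 46 h is the highest, reaching 44.1 RPKM in 4sU exon.

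Ptgs1, at chr2:36216742-36258593 on the plus strand, was the more abundant cyclooxygenase transcript in both lines. Its promoter is shown beside that of Ptgs2 because it held none of the 6 motifs, here for the 250 bases before the start listed in the RefSeq table (chr2:36230176-36230425), which lies inside the span of the gene.
Ptgs1 promoter: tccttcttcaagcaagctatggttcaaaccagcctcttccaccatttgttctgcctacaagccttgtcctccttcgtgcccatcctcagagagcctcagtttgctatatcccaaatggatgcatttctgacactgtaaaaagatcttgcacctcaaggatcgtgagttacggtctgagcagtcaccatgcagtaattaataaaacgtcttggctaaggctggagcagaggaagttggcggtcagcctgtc
The total exon level of Ptgs1 was 57.1 RPKM at the lowest, 63.7 at the median and 69.8 at the highest in shBmal1, against 51.4, 54.4 and 67.3 RPKM in shCTRL. The ranges overlapped, with 2 of 12 shBmal1 libraries above every shCTRL library. The log2 difference was 0.15 ± 0.0315, higher in shBmal1 at 11 of 12 time points. In introns it was -0.04 ± 0.0412 in 4sU RNA and 0.01 ± 0.0392 in total RNA, with shBmal1 higher at 4 and at 6 of 12 time points.

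The share of Ptgs2 in the summed RPKM of the 2 cyclooxygenases did not overlap between the lines in any of the 4 measures. This share carries the Ptgs2 line difference, known when the gene was chosen, so it is a description and not a separate result. In total exon it was 15.8% at the lowest, 19.8% at the median and 30.2% at the highest in shBmal1, against 5.03%, 8.75% and 10.1% in shCTRL. In 4sU exon it averaged 37.6 ± 7.53% in shBmal1 and 18.4 ± 2.86% in shCTRL (SD, n = 12 each). In 4sU intron it averaged 51.3 ± 3.91% in shBmal1 and 26.8 ± 3.88% in shCTRL. On average both lines held more Ptgs1 than Ptgs2 exon RNA, whereas in the 4sU introns of shBmal1 the pair was close to even.

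The 3 genes of prostaglandin E synthases stood closer together between the lines. Ptges, at chr2:30889471-30931020 on the minus strand, had total exon levels of 17.0, 20.5 and 25.0 RPKM (lowest, median, highest) in shBmal1, against 15.6, 17.0 and 20.0 RPKM in shCTRL. Its log2 difference was 0.25 ± 0.0389, higher in shBmal1 at 11 of 12 time points, with overlapping ranges. Its introns differed by 0.06 ± 0.0509 in 4sU RNA and 0.10 ± 0.0441 in total RNA.

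Ptges2 lies at chr2:32395890-32402740 on the plus strand and was the lowest of the 5 genes. Its promoter (chr2:32395640-32395889) is shown because it held the only other E-box among the 5 windows, in capitals at bases -77 to -72.
Ptges2 promoter: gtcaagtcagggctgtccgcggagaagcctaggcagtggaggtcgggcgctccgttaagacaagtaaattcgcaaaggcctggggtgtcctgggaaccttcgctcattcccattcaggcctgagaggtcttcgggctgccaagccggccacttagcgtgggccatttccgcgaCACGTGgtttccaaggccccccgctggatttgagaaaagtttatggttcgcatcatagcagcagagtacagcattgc
Its total exon levels were 4.15, 5.29 and 6.72 RPKM in shBmal1, against 3.81, 4.49 and 5.78 RPKM in shCTRL. The log2 difference was 0.22 ± 0.0658, and the ranges overlapped. In 4sU intron it was 0.28 ± 0.0715 and in total intron 0.28 ± 0.0925, each with shBmal1 higher at 9 of 12 time points. The part of the E-box in the line differences of Ptgs2 and Ptges2 was not tested. The windows of Ptges and Ptges3 held GC boxes and none of the other 5 motifs.

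Ptges3, at chr10:128058982-128077254 on the plus strand, had total exon levels of 60.1, 66.8 and 82.2 RPKM in shBmal1, against 42.8, 52.4 and 65.3 RPKM in shCTRL. The log2 difference was 0.37 ± 0.0571, and 8 of 12 shBmal1 libraries lay above every shCTRL library. The widest gap, 0.85 at 30 h, fell on the lowest shCTRL library, and the highest shBmal1 library was that at 34 h, the 2 cultures that stood apart. Without 30 h the difference was 0.31, and its introns differed by 0.09 ± 0.0407 in 4sU RNA and 0.12 ± 0.0391 in total RNA.

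**Figure D3:**
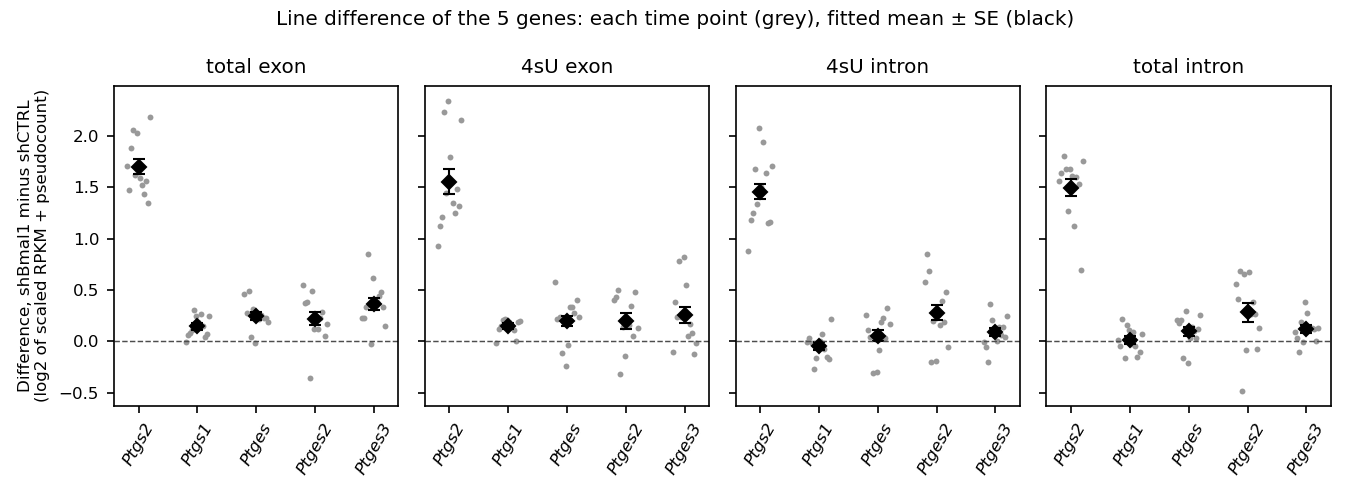
Log2 difference, shBmal1 minus shCTRL, of the 5 genes in the 4 RNA measures, with each time point in grey and the fitted mean ± SE in black. Ptgs2 lies at 1.46 to 1.70 in all panels, whereas the other means lie between -0.04 and 0.37.

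Ordered by total exon level, the genes ran Ptges3, Ptgs1, Ptges, Ptgs2 and Ptges2 in shBmal1, with means of 68.7 ± 6.53, 63.3 ± 4.23, 20.3 ± 2.10, 16.8 ± 3.97 and 5.33 ± 0.790 RPKM (SD, n = 12). In shCTRL the order was Ptgs1, Ptges3, Ptges, Ptgs2 and Ptges2, with means of 57.3 ± 5.98, 53.4 ± 6.52, 17.0 ± 1.22, 5.06 ± 0.843 and 4.55 ± 0.584 RPKM. Ptges3 and Ptgs1 overlapped in both lines. Ptgs2 overlapped with Ptges in shBmal1, where Ptges was higher in 10 of 12 libraries. In shCTRL it overlapped with Ptges2, where Ptgs2 was higher in 9 of 12 libraries.

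Rhythm over the day was no ground for the choice of the genes and is tested here. Each line was fitted with terms of 24 h and 12 h, and a rhythm was called at a limma adjusted p under 0.05 over all genes tested. Of the 80 tests of the 5 genes over 4 RNA measures, 2 lines and 2 periods, 3 were called, all of them 24 h rhythms of Ptgs1. In total exon, 1 of 5 genes was called in shBmal1, where 11.1% of all genes were, and 1 of 5 in shCTRL, where 3.60% were. The Ptgs1 amplitude, mean to peak on the log2 scale, was 0.12 ± 0.0315 in shBmal1 with a fitted peak at 28.4 h (limma adjusted p = 0.0493). In shCTRL it was 0.16 ± 0.0315 with a peak at 26.2 h (limma adjusted p = 0.0114). The shCTRL levels lay between 62.9 and 67.3 RPKM at 24 to 30 h and between 51.4 and 55.5 RPKM at 32 to 46 h, a step down rather than a wave that came back within the 12 samples. With a linear term for time in the fit neither was called (limma adjusted p = 0.766 in shBmal1 and 0.313 in shCTRL). The fitted amplitudes were then 0.14 in shBmal1 and 0.11 in shCTRL. The 12 samples cover no more than a single 24 h cycle, where a trend and a wave are hard to tell apart. A call lost with that term, here or below, therefore does not show that a rhythm was absent. The shBmal1 call was also lost when any 1 of 9 time points was left out, with adjusted p of 0.0517 to 0.228, and the shCTRL call without 38 h or 40 h (0.0663 and 0.102).

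In 4sU exon RNA, Ptgs1 was called in shBmal1, with an amplitude of 0.12 ± 0.0291 (limma adjusted p = 0.0222), beside 17.9% of all genes. That call was lost with a linear term for time, with only 24 h terms, and when the libraries at 28, 30, 36, 38, 40 or 42 h were left out. In shCTRL its amplitude was 0.12 ± 0.0291 and was not called (0.0880), beside 1.98% of all genes. In 4sU intron none of the 5 genes was called, beside 5.82% of all genes in shBmal1 and 1.12% in shCTRL. In total intron none was called either, beside 5.17% and 1.34% in the same lines. At an unadjusted p under 0.05, 23 of the 80 tests passed, beside 16.3% of the same tests over all genes.

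Ptgs2 was not called rhythmic in either line in any measure. Its 24 h amplitude in total exon was 0.10 ± 0.0740 in shBmal1 (limma adjusted p = 0.596) and 0.25 ± 0.0740 in shCTRL (0.143). In 4sU intron it was 0.09 ± 0.0753 in shBmal1 (0.712) and 0.36 ± 0.0753 in shCTRL, with a fitted peak at 46.9 h (0.0529). That shCTRL value was called with a linear term for time, without the 46 h libraries, and on the RPKM as deposited. The shCTRL 4sU intron libraries were highest at 24 h, 0.845 RPKM, and lowest at 32 h, 0.424 RPKM.

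No 12 h rhythm of the 5 genes was called by limma in 50 tests, although 11 passed an unadjusted p under 0.05, beside 10.9% of the same tests over all genes. Calls of a 12 h rhythm came to 0.0183% in total exon and 0.449% in total intron of shBmal1 and 0% in the other 8 combinations of measure and line. In shBmal1 total exon the 12 h amplitude of Ptgs2 was 0.28 ± 0.0740 with a peak at 34.4 h, close to the first of its high libraries (limma adjusted p = 0.0919). The difference in rhythm between the lines was called by limma for 0 of the 5 genes in 50 tests, with 7 by unadjusted p under 0.05, beside 10.0% of the same tests over all genes. A 24 h difference was called for 0.806% in total exon, 1.06% in 4sU exon, 0.285% in 4sU intron, 0.0998% in total intron and 0% in the 4sU/total ratio, as shares of the genes tested. For a 12 h difference the share was 0.020% in total intron and 0% in the others.

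The ratio of 4sU exon to total exon RNA of the same culture, on the log2 scale with the median gene at 0, sets labelled RNA against the RNA the cells held. Ptgs2 stood above the median gene in all 24 cultures. Its ratio was 0.09 at the lowest, 0.59 at the median and 0.85 at the highest in shBmal1, against 0.49, 0.67 and 1.03 in shCTRL. The fitted means were 0.56 ± 0.0491 in shBmal1 (limma adjusted p = 4.90e-09) and 0.71 ± 0.0491 in shCTRL (1.86e-10). They lay above 88.1% of 10870 genes in shBmal1 and above 96.4% in shCTRL. The ranges of the lines overlapped, and the difference between them was -0.15 ± 0.0694.

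Ptgs1 stood below the median gene in all 24 cultures, at -0.64 ± 0.0195 in shBmal1 (limma adjusted p = 1.71e-15) and -0.63 ± 0.0195 in shCTRL (2.12e-15). Its cultures were narrowly spread, between -0.68 and -0.56 in shBmal1 and between -0.76 and -0.56 in shCTRL. The 2 cyclooxygenases thus lay on opposite sides of the median gene in both lines. Ptges was above it, at 0.12 ± 0.0292 and 9 of 12 cultures in shBmal1 (limma adjusted p = 0.000867) and 0.17 ± 0.0292 and 12 of 12 in shCTRL (3.55e-05). Ptges2 was below it in all 24 cultures, at -0.36 ± 0.0415 in shBmal1 (limma adjusted p = 1.87e-07) and -0.34 ± 0.0415 in shCTRL (5.60e-07). Ptges3 was below it in 9 of 12 cultures and at -0.25 ± 0.0389 in shBmal1 (limma adjusted p = 9.51e-06), and in 12 of 12 and at -0.14 ± 0.0389 in shCTRL (0.00314).

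All 5 genes passed the adjusted p in both lines, 2 above and 3 below. That threshold alone was also passed by 43.4% of all genes above and 43.1% below in shBmal1, and by 42.8% and 42.4% in shCTRL. With a log2 size of at least 1, none of the 5 was called, beside 0.488% above and 1.56% below in shBmal1 and 0.322% and 1.24% in shCTRL. Over time, the ratios of Ptges and Ptges3 were called rhythmic at 24 h in shBmal1 (limma adjusted p = 0.0257 and 0.0280), beside 17.6% of all genes there and 0.00920% in shCTRL. Both calls were lost with a linear term for time.

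**Figure D4:**
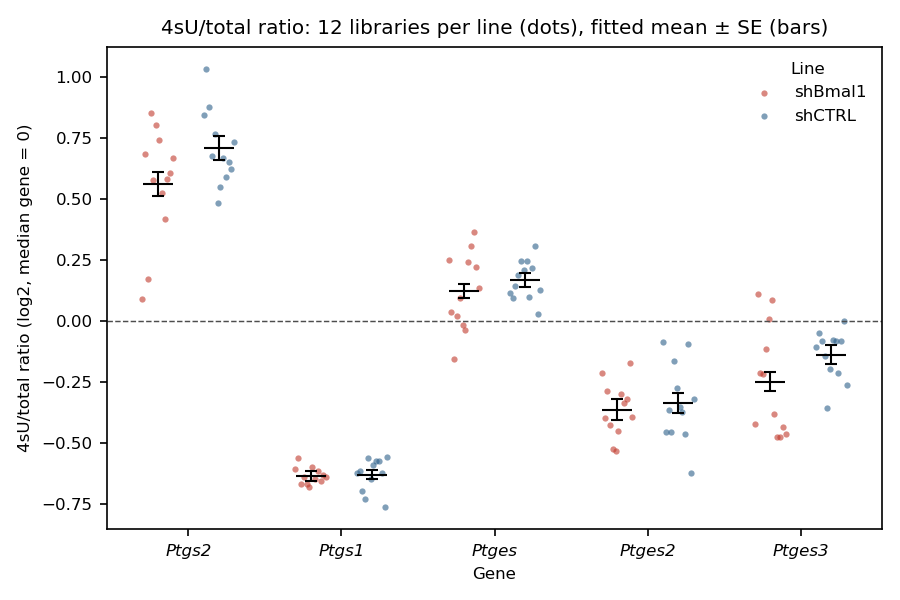
Log2 ratio of 4sU exon to total exon RNA, with the median gene at 0, for the 5 genes, with the 12 cultures of shBmal1 in red left of the 12 of shCTRL in blue, and the fitted mean ± SE as black bars. Ptgs2 lies above 0 and Ptgs1 and Ptges2 below it in every culture.

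The other genes of the pathway were taken from 7 lists of 74 genes, 51 of them in the tables and none of them one of the 5. In total exon, 48 were tested, of which 16 were higher and 13 lower in shBmal1 at a limma adjusted p under 0.05. Among all genes 34.4% were higher and 33.1% lower by that rule. In 4sU intron, 7 of 44 were higher and 8 lower, beside 22.0% and 22.4% of all genes. Unscaled, 22 of these genes were higher and 8 lower in total exon, and 1 was higher and 41 lower in 4sU intron. With a log2 size of at least 1 as well, 3 of 48 were higher and none lower in total exon, beside 0.889% and 1.36%, and 1 of 44 was higher and none lower in 4sU intron, beside 0.514% and 0.362%. Of the 3 in total exon, Plaat3 had an exon length of 1892 bases in shBmal1 and 3514 in shCTRL. Alox5ap was near the floor, with medians of 0.824 RPKM in shBmal1 and 0.367 RPKM in shCTRL.

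Of 12 tested genes that free or store arachidonic acid, 7 rose in shBmal1 and 1 fell, with a list median of 0.26 against 0.01 over all genes. Pla2g4a, the cytosolic phospholipase A2 that supplies the cyclooxygenases, lies at chr1:149829618-149961290 on the minus strand, a span that ends 138740 bases before the start of Ptgs2. Its total exon level was 5.75, 7.45 and 10.8 RPKM (lowest, median, highest) in shBmal1, against 4.37, 5.30 and 6.83 RPKM in shCTRL. The log2 difference was 0.50 ± 0.0849 (limma adjusted p = 2.93e-05), with shBmal1 higher at 11 of 12 time points and overlapping ranges. Its highest shBmal1 library was that at 34 h and its lowest shCTRL library that at 30 h, the 2 cultures that stood apart, and without either time point the difference was 0.44 (34 h) and 0.43 (30 h). Pla2g5, a secreted phospholipase, was higher by 0.59 ± 0.0470 at 12 of 12 time points (8.15e-10). Plaat3, a phospholipase and acyltransferase, was higher by 1.01 ± 0.0458, but its RPKM used an exon length of 1892 bases in shBmal1 and 3514 in shCTRL, and its 4sU intron difference, where the lengths were equal, was -0.03 ± 0.050. Pla2g5 was among the 6 tested genes of these lists with more than 1 exon length, and all of the 5 prostaglandin genes had 1. In 4sU intron, 2 of 11 genes of the list were higher and 1 lower.

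Among 3 other terminal synthases, 1 rose and 1 fell in total exon. Akr1b3, an aldose reductase with prostaglandin F synthase activity, averaged 3.86 RPKM in shBmal1 and 2.26 RPKM in shCTRL, higher by 0.72 ± 0.0604 at 12 of 12 time points (limma adjusted p = 1.72e-09), while its 4sU intron difference was 0.00 ± 0.0715 (0.972). Ptgis, the prostacyclin synthase, fell by 0.20 ± 0.0651, at 9 of 12 time points (limma adjusted p = 0.0111), a call lost on the RPKM as deposited (0.0958). Of 3 tested genes of the receptor list, 2 fell and none rose, and only Ptger4 of those 2 encodes a prostaglandin receptor itself. Ptgfrn, a membrane protein named as a regulator of the prostaglandin F receptor, was 34.6 RPKM at the median in shBmal1 and 59.2 RPKM in shCTRL, and it fell by 0.76 ± 0.0290 in total exon and fell by 0.63 ± 0.0362 in 4sU intron, each at 12 of 12 time points (limma adjusted p = 5.33e-15 and 1.03e-10). Ptger4, a prostaglandin E2 receptor with more than 1 exon length, fell by 0.37 ± 0.0747.

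Of 6 genes of transport and inactivation, 2 rose and 1 fell. Slco2a1, the transporter that takes prostaglandins into cells, had total exon levels of 12.7, 14.5 and 17.0 RPKM in shBmal1, against 6.25, 6.73 and 7.75 RPKM in shCTRL. Its libraries were fully separated, and the log2 difference was 1.08 ± 0.0458 (limma adjusted p = 3.84e-14), at 12 of 12 time points. It was also the gene past the size threshold in 4sU intron, at 1.05 ± 0.0547 (2.42e-11). Ptgr1, a reductase of prostaglandin breakdown, was higher by 0.25 ± 0.0507, and Zadh2, another prostaglandin reductase, fell by 0.23 ± 0.0612, a call lost on the RPKM as deposited (limma adjusted p = 0.0643). In the lipoxygenase branch, 2 of 3 genes rose. Alox5ap, the 5-lipoxygenase activating protein, was higher by 1.12 ± 0.117 at 12 of 12 time points (limma adjusted p = 4.36e-08) at a low level, 0.824 RPKM at the median in shBmal1 and 0.367 RPKM in shCTRL. With a pseudocount of 1 RPKM it was 0.46 and Slco2a1 0.99, and no pathway gene in total exon then reached a log2 of 1. Lta4h, the leukotriene A4 hydrolase, was higher by 0.12 ± 0.0326.

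**Figure D5:**
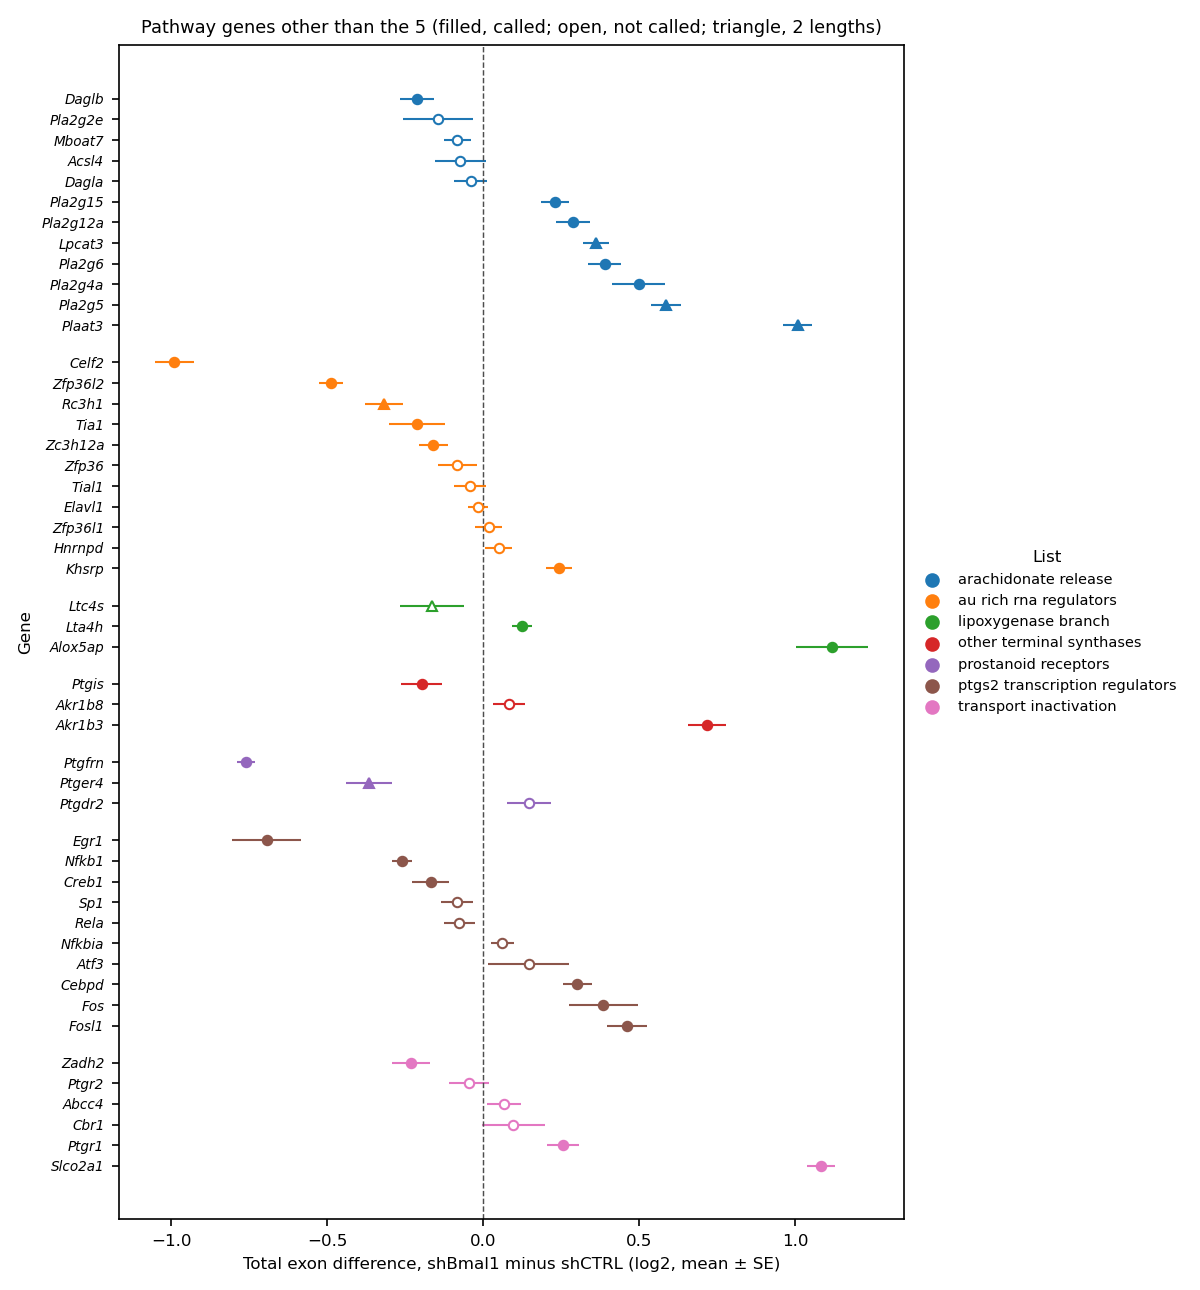
Log2 difference in total exon, shBmal1 minus shCTRL ± SE, of the 48 tested pathway genes other than the 5, coloured by list, with filled symbols at a limma adjusted p under 0.05 and triangles for genes with more than 1 exon length. Alox5ap, Slco2a1 and Plaat3, the last with more than 1 exon length, lie at 1.01 to 1.12 and Celf2 is the lowest at -0.99.

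Of the list of 13 transcription regulators known to act on Ptgs2, Cebpb, Jun and Junb were not among the symbols. Of the 10 others, 3 rose and 3 fell in total exon, with a list median of -0.01. These shares are close to the 34.4% higher and 33.1% lower over all genes. Fosl1 and Fos, members of the AP-1 family, were higher by 0.46 ± 0.0646 and 0.38 ± 0.111, at 12 and at 9 of 12 time points (limma adjusted p = 2.62e-06 and 0.00452). Egr1, an immediate early zinc finger factor, fell by 0.69 ± 0.112, at 11 of 12 time points (1.50e-05). In 4sU intron none of these was called, at 0.13 ± 0.0595 for Fosl1, -0.61 ± 0.275 for Fos and -0.36 ± 0.153 for Egr1. Of 11 listed genes of RNA-binding proteins that act on messenger RNA, not all through AU-rich elements, 1 rose and 5 fell in total exon. The list median was -0.08, and 34.4% of all genes were higher and 33.1% lower. Celf2, an RNA-binding protein, fell by 0.99 ± 0.0624 (limma adjusted p = 2.05e-11) and Zfp36l2, a factor of AU-rich RNA decay, fell by 0.49 ± 0.0390 (8.23e-10), each at 12 of 12 time points. Rc3h1, which encodes the decay factor roquin-1 and carried more than 1 exon length, fell by 0.32 ± 0.0608. Celf2 and Zfp36l2 fell by 0.21 ± 0.0743 and 0.44 ± 0.0929 in 4sU intron, where Rc3h1 differed by -0.02 ± 0.0613. In 4sU intron, 1 of 10 transcription regulators was higher and 1 lower. Of the 11 RNA-binding genes, 2 were higher and 3 lower there, beside 22.0% and 22.4% of all genes.

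The genes whose total exon course over the 12 time points was most like that of Ptgs2 in both lines were ranked by the smaller of 2 Pearson correlations, one within each line, over 10911 genes. Ereg, the gene of the growth factor epiregulin, came first, at r = 0.84 in shBmal1 and 0.88 in shCTRL. It was followed by Tars (0.82 and 0.81 in the same lines), which encodes a threonyl-tRNA synthetase, and Slc38a2 (0.80 and 0.82), an amino acid transporter. Chd2 (0.79 and 0.86), a chromatin remodeller, and Slc7a1 (0.79 and 0.79), a transporter of cationic amino acids, came next. The log2 line differences of these genes were -0.01 ± 0.0929 for Ereg, 0.28 ± 0.0568 for Tars, 0.07 ± 0.0494 for Slc38a2, -0.09 ± 0.0690 for Chd2 and 0.37 ± 0.0746 for Slc7a1. Among the 5 genes, Ptges3 had r = 0.32 and 0.38 with Ptgs2, Ptgs1 -0.05 and -0.44, Ptges2 -0.45 and -0.43, and Ptges -0.72 and -0.69. These are descriptions over 12 libraries per line, whose scaling and library effects all genes share.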

How the data were processed

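The authors deposited 2 tables of RPKM per gene, one over exons and one over introns, for 48 libraries of strand-specific, rRNA-depleted, paired-end RNA-seq. Trim Galore, HOMER 4.11.1 and the build GRCm38.p6 (mm10) are named, per the submitters' processing notes; the aligner and the use of strand in counting are not given in the sources used here, and spike-in reads were not analysed here. Whole-read steps of the deposited RPKM gave the depth of each library. For introns, the total of the shBmal1 total library at 24 h was taken as equal to its exon total. On that scale, intron values were divided by a total 1.35 to 1.39 times the exon total in the 12 shBmal1 4sU libraries. The other 36 libraries shared the equal totals set for that library.

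RPKM were scaled by median ratios within each measure. Genes with a mean of at least 0.5 RPKM in exons or 0.1 in introns were kept, and log2(RPKM + 0.1) for exons or log2(RPKM + 0.02) for introns was taken, which understates changes of low genes. limma 3.58.1 (R 4.3.3; trend and robust) fitted a mean and 24 h and 12 h cosine and sine terms for each line, with Benjamini-Hochberg adjustment over all genes tested. With 1 library per time point from 1 stable line each, errors are the spread around the curve of each line and hold no spread between independently made lines. The fits were checked on simulated data. Tables and figures used Python 3.11.15, pandas 2.3.3, numpy 2.4.6 and matplotlib 3.10.9.

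The 5 genes, the pathway lists and the rules for named genes were chosen with earlier results of these data known. Named were the 5 genes, pathway genes past the adjusted p with a log2 size of at least 1, the 3 largest called changes of each list, and the 5 genes most like Ptgs2 over time. Alternatives were the RPKM as deposited, larger pseudocounts, no filter, other time terms, each time point left out and the time point as a block.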

Additional observations from a re-analysis of the deposited data

Results flagged for a closer look

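Ptgs2os, a long noncoding RNA gene on the minus strand at chr1:150074873-150099874 of GRCm38.p6, starts 156 bases before Ptgs2 and is transcribed away from it. It was below the filter on low values, so no comparison above used it. Its deposited total exon level was 0.206 RPKM at the lowest, 0.386 at the median and 0.497 at the highest in shBmal1, against 0.0650, 0.132 and 0.230 RPKM in shCTRL, a ratio of means of 2.95. In 4sU exon RNA it averaged 0.580 ± 0.107 RPKM in shBmal1 and 0.254 ± 0.0559 RPKM in shCTRL (SD, n = 12 each), a ratio of 2.28. These levels rest on 41 to 88 reads per total library in shBmal1 and 11 to 48 in shCTRL. Its RPKM used an exon length of 2928 bases in total RNA and 1782 in 4sU RNA, the same in both lines. Total and 4sU levels are therefore not comparable with each other. Ptgs2os was higher in shBmal1 at 12 of 12 time points in both kinds of RNA. It was looked at because it lies beside Ptgs2 and stood above the control line. The sources used here do not say whether strand was used in counting, so reads of either strand from the region before Ptgs2 cannot be told apart from its own.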

How the results depend on the processing

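Of 93 results with 1569 alternative values, 66 were unchanged under every alternative. For a count, unchanged meant a similar size, and for a test the same call and sign. Counts that were 0 under every setting are among the unchanged, such as most differences in rhythm and the 12 h rhythms of shCTRL. The number unchanged is thus no measure of how firm the results are. For a line difference of the 5 genes it meant the same sign and a shift under the SD over time points. The Ptgs2 line difference ran from 1.64 to 1.75 in total exon, 1.47 to 1.64 in 4sU exon, 1.39 to 1.504 in 4sU intron and 1.44 to 1.57 in total intron when 1 time point was left out. On the RPKM as deposited, the 4sU intron differences were 0.99 for Ptgs2, -0.51 for Ptgs1, -0.41 for Ptges, -0.19 for Ptges2, -0.38 for Ptges3 and -0.46 for Akr1b3, where the median of all genes moved to -0.45 with the larger intron totals of the shBmal1 4sU libraries. The pathway counts in 4sU intron then came to 1 higher, 41 lower, 0 higher by at least 1 and 2 lower by at least 1, and those in total exon to 22 higher and 8 lower. With the larger pseudocounts, 0 pathway genes were higher by at least 1 in total exon or 4sU intron. Of the 24 h rhythms among the 5 genes, in total exon of shBmal1 2 were called on the RPKM as deposited and 0 with no filter, a linear term or only 24 h terms; in 4sU exon of shBmal1 2, 0 with a linear term and 0 with only 24 h terms. A linear term left 0 in total exon of shCTRL and 0 in the ratio of shBmal1, and in 4sU intron of shCTRL 1 was called with it and 1 on the RPKM as deposited. The cause of these changes was not tested. Leaving out 1 time point gave 0 to 1 calls at 24 h in total exon of each line, 0 to 3 in 4sU exon of shBmal1, 0 to 1 in 4sU intron of shCTRL and 0 to 2 in the ratio of shBmal1. It gave 0 to 3 calls at 12 h in total exon of shBmal1, 0 to 1 in its 4sU exon and total intron, and 0 to 1 differences at 24 h in 4sU exon. It gave 0 to 1 pathway genes lower by at least 1 in total exon, -0.0146 to 0.0387 for Ptgs1 in total intron and -0.0543 to 0.0606 for Akr1b3 in 4sU intron.

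With the time point as a replicate block, the Ptgs2 line differences were 1.70, 1.55, 1.46 and 1.49, 16 pathway genes were higher and 12 lower in total exon, and 5 were higher and 9 lower in 4sU intron. Libraries of the same time point deviated together (correlation above 0.1) in 9 of 12 pairs in total exon, 10 in 4sU exon, 8 in 4sU intron and 4 in total intron. As this did not hold for every pair, the block was kept as an alternative only. Of the shBmal1 libraries, 4, 2, 5 and 2 of 12 in the same measures correlated best with their own time point.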
